A study of Mus musculus and Rattus norvegicus with 35 samples.

Results

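The liver of the C57BL/6 mouse, an inbred laboratory strain, was set against brain, heart, lung and testis. The 3 liver libraries, taken by their tissue label, are 3 of the 35 samples of the series, and they were compared with 12 libraries of the 4 other tissues. Each of the 5 tissues had 1 library from mice aged 14 weeks and 2 from mice aged 20 weeks, all made from total RNA after removal of ribosomal RNA (rRNA). The labels name no sex, allele or treatment for these groups. They do not say either whether the 2 20-week libraries of a tissue came from separate animals. Every p-value thus measures only the spread between these libraries. That spread holds the difference between the ages, and between libraries of the same age it may be technical. Levels of genes were given as TPM (transcripts-per-million), which corrects for gene length, and levels of circular RNAs (circRNAs) as RPM (back-splice reads-per-million), without such a correction. Of 24601 genes, 18966 reached 1 TPM in at least 3 of the 15 libraries and were tested. Of 28482 circRNAs, 842 had at least 20 reads over the 15 libraries and a read in at least 3 of them, and were tested.

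Hepatocytes, the main cells of the liver, make most of the proteins of blood plasma, synthesise bile acids, store and release glucose, turn ammonia into urea, and oxidise and conjugate foreign compounds. They share the tissue with Kupffer cells (resident macrophages), fenestrated sinusoidal endothelial cells, stellate cells that store vitamin A, and the epithelium of the bile ducts. A circRNA arises when the end of an exon is spliced back to the start of the same or an upstream exon of the same gene, its host. The closed ring has no free end and resists exonucleases, so it can outlast the linear transcript.

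Read totals differed between tissues. Liver libraries held 2120 circRNA reads at 14 weeks and 1442 and 1231 at 20 weeks, and the other libraries 1646 to 23286. Such totals rise with circRNA abundance as well as with depth. By the deposited scale 1 read was worth 0.750, 0.960 and 1.05 RPM in liver and 0.718 to 2.14 RPM elsewhere. A smaller worth means a deeper library, so by this scale liver was not the shallowest. Between 11728 and 12439 genes reached 1 TPM in liver, against 13378 to 15605 elsewhere. The 10 most abundant genes of a library took 17.8 to 21.3% of TPM in liver and 4.01 to 14.3% elsewhere. TPM sums to the same total in every library, and 9310 genes found at 1 TPM or more in all 15 libraries had a median of 14.6 to 17.8 TPM in liver and 17.7 to 40.3 TPM elsewhere. Libraries were therefore also scaled to equal medians over those 9310 genes, a choice made after the data were seen, and the main counts are given with both scalings. That scaling moved the median difference of all tested genes from -1.02 to -0.50 on the log2 scale.

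The label of the tissue was checked with Alb (serum albumin) and Apoa1 and Apoa2 (the main proteins of high-density lipoprotein). In the 14-week and the 2 20-week liver libraries in turn, Alb stood at 47059, 40781 and 70291 TPM, Apoa2 at 18150, 13939 and 16438 TPM, and Apoa1 at 2744, 6400 and 7262 TPM. The highest library of another tissue reached 68.0 TPM for Alb, 19.5 TPM for Apoa2 and 4.43 TPM for Apoa1. All 3 markers thus separated liver from the rest by a wide margin. Small amounts were present elsewhere: Alb in 14-week lung and heart equalled 0.144% and 0.12% of its level in 14-week liver, it was 0 in 14-week brain, and in the 20-week libraries of other tissues it lay between 0.0264% and 0.0507% of 20-week liver. In the other direction, Prm1, a protamine of sperm chromatin, was listed at 0 TPM in 14-week liver and at 2.97 and 2.69 TPM in the 20-week libraries. Myl2, a ventricular myosin light chain, stood at 0, 5.05 and 4.70 TPM, and Scgb1a1, the secretory protein of airway club cells, at 0, 17.4 and 4.72 TPM. The source of these traces was not tested.

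The liver libraries fell apart by age. Transcripts of the Y-linked genes Ddx3y, Eif2s3y, Kdm5d and Uty were listed at 0 TPM in 14-week liver. In the 20-week liver libraries Ddx3y stood at 48.31 and 49.96 TPM, Eif2s3y at 69.3 and 69.5 TPM, Kdm5d at 9.77 and 8.41 TPM, and Uty at 25.1 and 24.1 TPM. The 14-week heart library likewise had 0 TPM of all 4 genes, and 14-week lung had 0 TPM of Ddx3y, Eif2s3y and Kdm5d and 0.1 TPM of Uty. Every brain and testis library and every 20-week library held all 4 transcripts. Genes known to differ between the livers of female and male mice split the same way. A1bg stood at 5142 TPM in 14-week liver and at 0.16 and 0 TPM in the 20-week libraries, Cyp2b9 at 656, 0 and 0 TPM, Sult3a1 at 569, 0 and 0 TPM, and Cyp3a41a at 415, 0 and 0 TPM, all of them genes with higher expression in female liver. Of genes with higher expression in male liver, Mup20 (a major urinary protein that serves as a pheromone) stood at 70.8, 10067 and 10589 TPM, Cyp2d9 at 13.7, 840 and 1099 TPM, Cyp4a12a at 0.17, 181 and 172 TPM, and Elovl3 at 5.08, 572 and 116 TPM. In liver, age and these sex-linked levels cannot be told apart, so any contrast of 14-week with 20-week liver given here holds both. These genes were picked after their values were seen and were not tested. The main counts are therefore also given for the 20-week libraries alone.

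**Figure D1:**
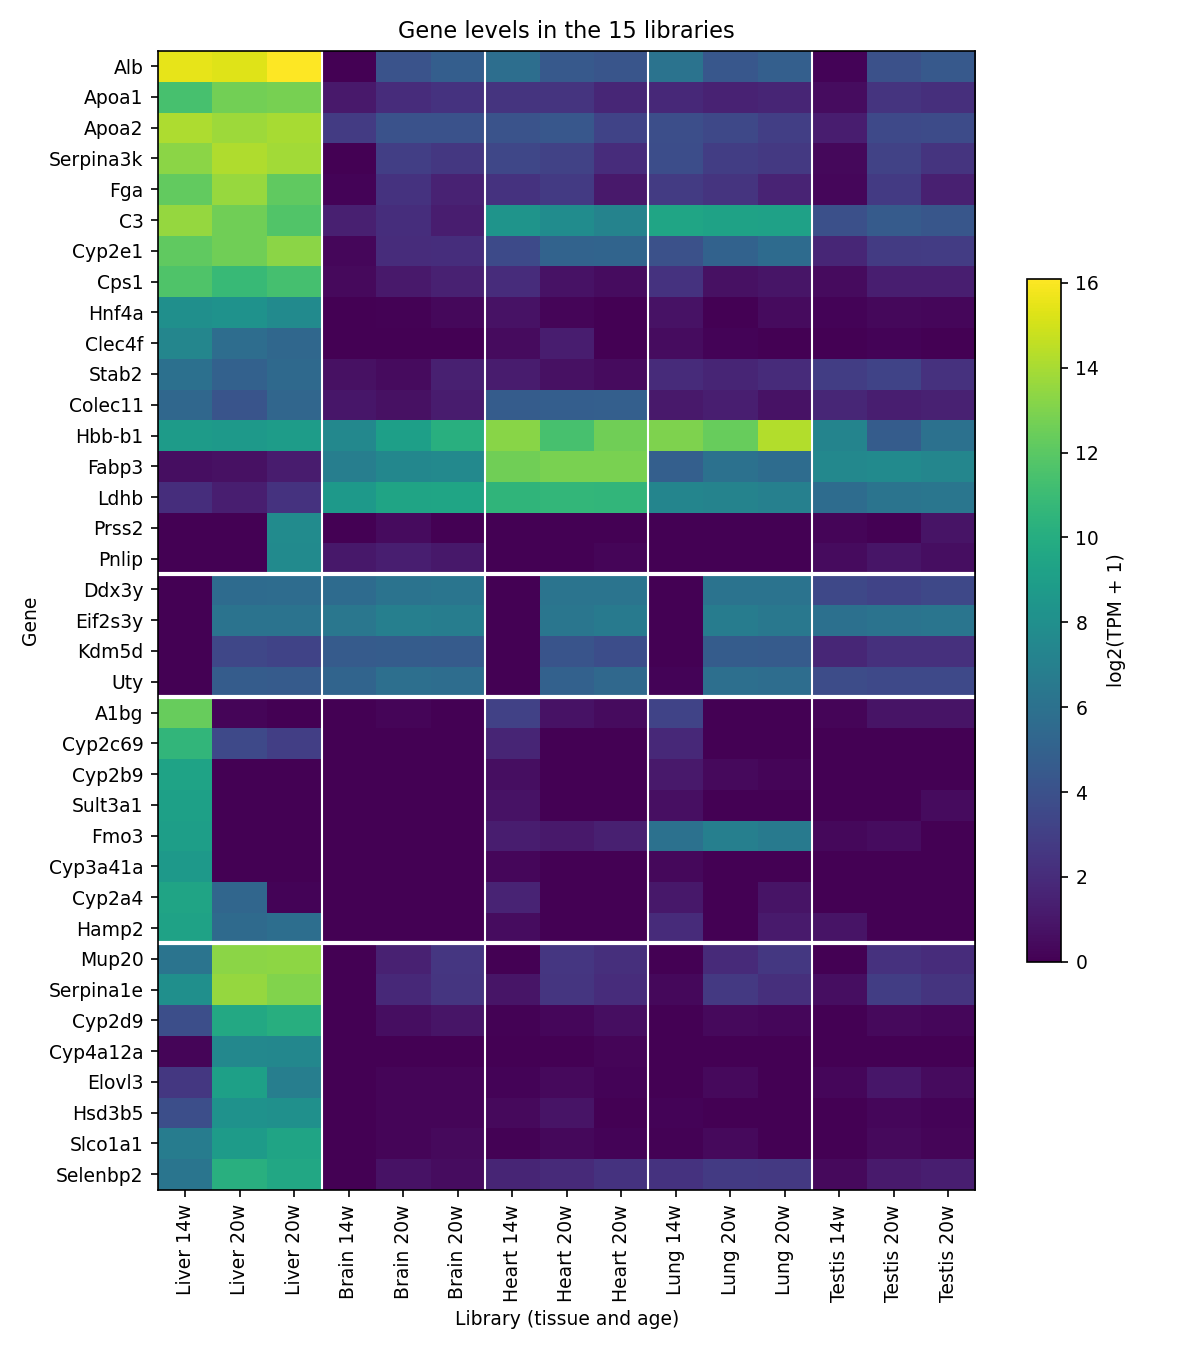
Level of 37 genes in each of the 15 libraries, as log2(TPM + 1), with tissues separated by vertical lines (14w, 14 weeks; 20w, 20 weeks). From top to bottom the blocks hold genes of the comparison, Y-linked genes, genes with higher expression in female mouse liver and genes with higher expression in male mouse liver. Alb reaches 70291 TPM in liver, and the 14-week liver, heart and lung columns are at 0 for Ddx3y, Eif2s3y and Kdm5d.

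The second 20-week liver library also held transcripts of digestive enzymes of the exocrine pancreas. Prss2 (a trypsinogen) stood at 0, 0 and 215 TPM in the 3 liver libraries, Ctrb1 (chymotrypsinogen B1) at 0, 0 and 220 TPM, and Pnlip (pancreatic lipase) at 0, 0 and 209 TPM. Of 17 genes of pancreas, stomach and gut that were looked at, 7 could be tested, Cela2a was called higher than the mean of the 4 tissues, and Fabp2 and Cela1 were called higher in liver than in each other tissue. Fabp2, a fatty acid binding protein of the gut, did not depend on that library, at 63.7, 125 and 135 TPM against at most 1.04 TPM elsewhere. Without the second 20-week library the difference of Pnlip turned from 2.11 to -0.47 on the log2 scale.

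Which genes the liver expresses above the other tissues was asked first. The difference for a gene is the mean log2(TPM + 1) of the 3 liver libraries minus the mean over the 4 tissues, tested with limma, two-sided, with Benjamini-Hochberg adjustment over all genes tested and a threshold of 0.05. Of 18966 genes, 2061 were higher in liver (10.9%) and 13768 were lower (72.6%). A stricter call asked that liver differ from each of the 4 tissues in the same fit: 951 genes were higher than in each (5.01%) and 3252 were lower than in each (17.1%). The 3 liver libraries lay above all 12 others for 962 genes (5.07%) and below all 12 for 4017 genes (21.2%). After scaling to the common genes, higher calls made up 29.9% of all calls in place of 13.0%, with 4147 higher (21.9% of all tested) and 9723 lower (51.3%). All 951 genes above each tissue kept that call. That scaling raises liver against the other tissues, so the call could hardly be lost and keeping it is no support. With the 20-week libraries alone, 907 of 949 testable genes of the 951 kept the call. The 951 genes together took 60.5% of TPM in liver, as the mean of its 3 libraries. Against single tissues, 2160 genes were higher in liver than in brain, 2160 than in heart, 1600 than in lung and 4187 than in testis.

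Secreted proteins of the blood headed the list of higher genes. All 30 plasma proteins examined were higher in liver than in each other tissue, with a median difference of 8.97 against -1.02 over all genes tested. Serpina3k, a serine protease inhibitor, stood at 10064, 18512 and 14920 TPM in liver and at 0 to 12.8 TPM (median 6.03) elsewhere, a difference of 11.31 ± 0.61 (SE; adjusted p = 1.23e-09). Gc, the vitamin D binding protein, varied little within liver, at 7767, 7521 and 7996 TPM against 0 to 10.9 TPM elsewhere (11.03 ± 0.50, adjusted p = 2.23e-10). Ahsg (fetuin-A, an inhibitor of mineralisation) and Kng1 (kininogen) each differed by 10.61, without overlap. Trf, the iron carrier transferrin, was the most abundant gene after Alb, at 22664, 22264 and 18605 TPM, and was also made elsewhere, at up to 848 TPM in brain (7.18 ± 0.24). Ttr, the carrier of thyroid hormone and retinol binding protein, reached 3963, 8030 and 10882 TPM in liver, and a brain library held 2501 TPM. The lowest differences of this group were those of Igfals (5.21) and Igf1 (5.71), which carry the growth hormone signal to other tissues.

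Of 20 clotting factors and their regulators, 19 were higher in liver, 18 of them than in each tissue. The chains of fibrinogen moved together across libraries: Fga stood at 4872, 12342 and 4679 TPM, Fgb at 5167, 12971 and 4897 TPM, and Fgg at 4581, 11105 and 4487 TPM. Each was 10.40 to 10.89 above the other tissues, where no library exceeded 9.97 TPM. The first 20-week library held more than both others for all 3 chains. F2 (prothrombin) differed by 9.57 and F9, missing in haemophilia B, by 7.19. Exceptions were Vwf and Pros1. Vwf, von Willebrand factor of endothelial cells and platelets, was lower in liver (10.7, 10.4 and 10.8 TPM against 8.72 to 284 TPM, -1.997 ± 0.240, adjusted p = 3.38e-06), with overlap. Pros1, protein S, was higher than the mean of the 4 tissues by only 0.65 and overlapped with lung. Of 20 complement genes, 19 were tested and higher, 18 of them than in each tissue. C3, the central component, stood at 12007, 6302 and 3448 TPM, above lung at up to 698 TPM (6.91 ± 0.31). C8a, a part of the membrane attack complex, was lower at 14 weeks, at 196 TPM against 1451 and 1214 TPM.

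Lipid transport and bile acid synthesis behaved alike. All 20 genes of lipoproteins were higher, 18 than in each tissue (median 8.20), the receptor Scarb1 being higher against the mean of the 4 tissues but not against each. Apoc1 stood at 12812, 17284 and 19182 TPM against 8.67 to 85.9 TPM, and Apoe at 22065, 16091 and 15963 TPM against 61.5 to 2742 TPM. Apoe was thus abundant in brain too, and its difference was 5.36 ± 0.25 where that of Apob, the scaffold of low-density lipoprotein, was 10.18. All 20 bile acid genes were higher than in each tissue (median 6.32). Cyp7a1, the rate-limiting enzyme of bile acid synthesis, varied widely within liver, at 256, 41.0 and 113 TPM against 0 to 3.28 TPM. The canalicular export pump Abcb11 stood at 590, 342 and 401 TPM, and the uptake carrier Slco1b2 at 868, 966 and 1315 TPM against at most 1.39 TPM elsewhere.

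Genes of drug metabolism were mostly higher, with exceptions shared with lung. Of 37 cytochrome P450 genes and their reductase, 35 were tested, 32 were higher and 29 exceeded each tissue (median 6.80). Cyp2e1, which oxidises ethanol, stood at 4553, 6349 and 10076 TPM against 0.241 to 48.4 TPM (9.32 ± 0.46), and Cyp3a11 at 2694, 2599 and 5882 TPM against at most 2.95 TPM (10.56 ± 0.36). Cyp2f2 was higher than the mean of the 4 tissues (6.15 ± 0.20), yet a lung library reached 1557 TPM against 495, 723 and 630 TPM in liver. Cyp4b1, at 21.0, 10.7 and 16.49 TPM, had up to 671 TPM in lung and was not called (adjusted p = 0.82). Cyp2b10 (adjusted p = 0.493) and Cyp17a1 (adjusted p = 0.0541) were not called either. With the 20-week libraries alone, 32 genes of this list were higher and 1 was lower. Of 23 conjugating enzymes, 22 were tested, 20 were higher and 19 exceeded each tissue (median 5.72). Gstp1, a glutathione transferase, and its near-identical copy Gstp2 share reads, so their division is uncertain; Gstp1 stood at 212 TPM at 14 weeks and 1823 and 1919 TPM at 20 weeks, against 18.7 to 208 TPM elsewhere. Gsta4 was not called (-0.11 ± 0.25, adjusted p = 0.699).

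Intermediary metabolism split by pathway. All 18 genes of glucose handling were higher, 16 than in each tissue (median 5.52), among them Pck1 of gluconeogenesis (643, 1826 and 1793 TPM against at most 24.6 TPM). All 30 genes of the urea cycle and amino acid breakdown were higher, 28 than in each tissue (median 6.73). Cps1, which starts the urea cycle, stood at 3212, 1821 and 2662 TPM against 0.329 to 4.08 TPM (10.16 ± 0.38). Glul, glutamine synthetase, overlapped: liver had 1269, 1007 and 862 TPM, the others 272 to 2928 TPM (median 555), with brain highest, and the difference was 0.64 ± 0.27 (adjusted p = 0.0396). Fatty acid oxidation and ketone synthesis gave smaller differences. Of 21 genes, 20 were tested, 19 were higher and 10 exceeded each tissue (median 2.57), and a heart library held more than any liver library of Acadm, Acadl, Hadh and Acadvl. Fabp1, the liver fatty acid binding protein, stood at 15638, 12753 and 18203 TPM against at most 34.1 TPM (10.71 ± 0.63). Of 24 genes of fatty acid and cholesterol synthesis, 22 were tested, 20 were higher and 7 exceeded each tissue (median 2.02), and with the common genes 22 and 14. Hmgcs1 and Mvd were listed at 0 TPM in all 15 libraries. Fasn, fatty acid synthase, stood at 427, 76.6 and 64.9 TPM and overlapped with lung at 226 TPM.

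**Figure D2:**
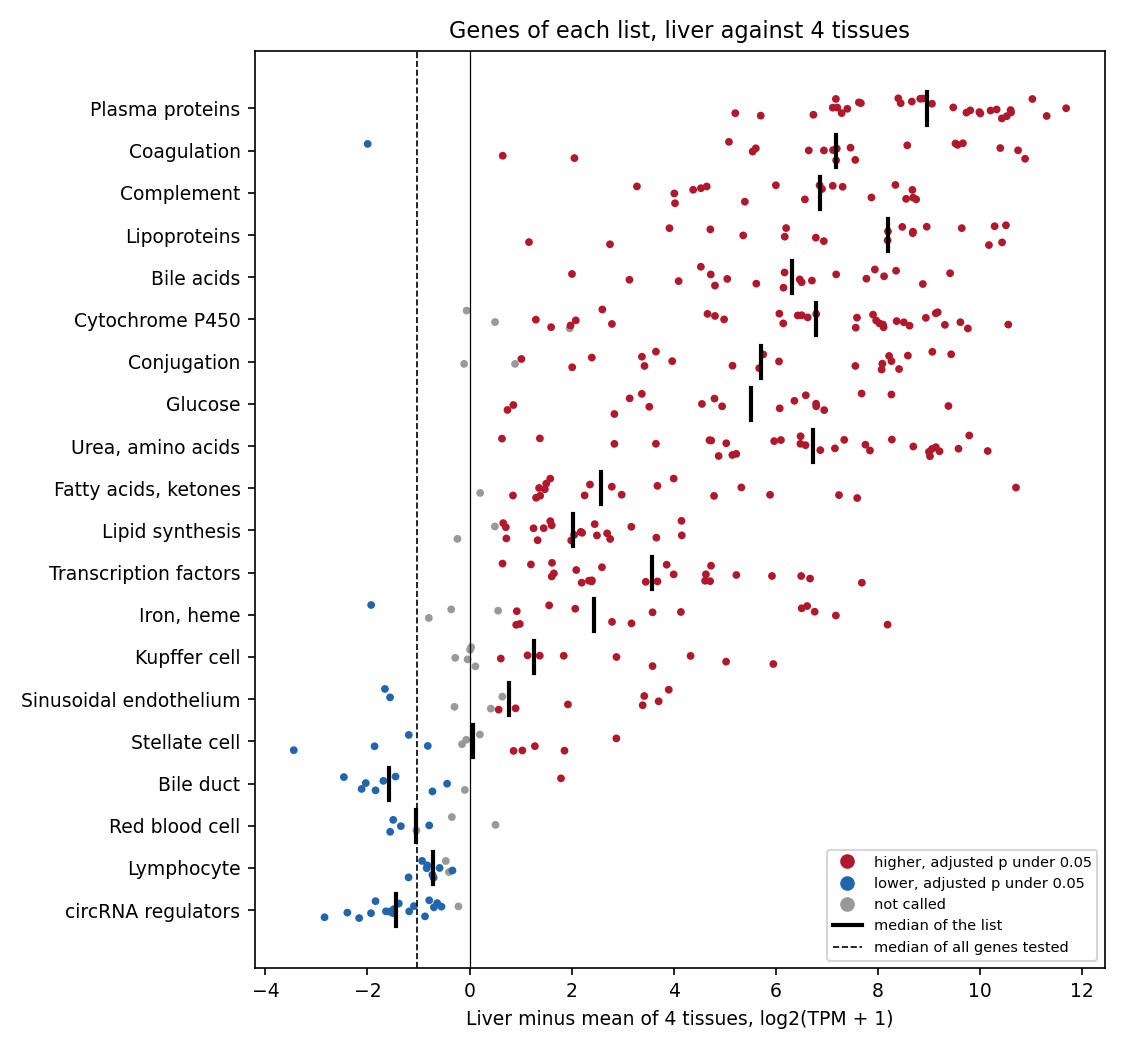
Difference between liver and the mean of 4 tissues for the tested genes of 20 lists, on the log2(TPM + 1) scale. Points are genes, coloured by call, black bars are list medians and the dashed line is the median of all genes tested (-1.02). The medians of plasma proteins (8.97) and lipoproteins (8.20) lie far to the right, and those of bile duct (-1.57) and circRNA regulators (-1.44) to the left of the dashed line.

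All 24 transcription factors associated with hepatocytes were higher than the mean of the 4 tissues, and 16 exceeded each tissue (median 3.57). Hnf4a, a nuclear receptor required for hepatocyte identity, stood at 253, 293 and 210 TPM against 0 to 0.743 TPM (7.69 ± 0.19, adjusted p = 6.45e-13). Creb3l3, a membrane-bound factor of lipid metabolism, stood at 138, 136 and 120 TPM against at most 0.897 TPM. Cebpa was present in lung as well, at up to 70.5 TPM against 131, 121 and 152 TPM. Foxa1 and Foxa2, pioneer factors shared by endoderm, overlapped with lung, where they reached 18.0 and 37.3 TPM.

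Promoters of genes with very large differences are shown because factors of the kind listed above bind known motifs near such genes. The stretches are the 120 bases before the annotated start in RefSeq, build GRCm38.p6. Capitals mark matches to GTTAAT, the core of HNF1 sites, to TTGCNNAA, the C/EBP motif, and to TATAAA, the TATA box. The first 2 were searched on both strands and TATAAA on the gene's strand. The stretches lie at chr5:90460750-90460869 on the plus strand (Alb), chr5:89457899-89458018 on the minus strand (Gc), chr3:83026033-83026152 on the plus strand (Fga), chr3:83049864-83049983 on the minus strand (Fgb), chr6:71199759-71199878 on the plus strand (Fabp1), chr9:46228510-46228629 on the plus strand (Apoa1) and chr16:22891895-22892014 on the plus strand (Ahsg).
Alb: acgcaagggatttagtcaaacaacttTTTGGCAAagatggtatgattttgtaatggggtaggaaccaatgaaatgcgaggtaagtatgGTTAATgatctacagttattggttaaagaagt
Gc: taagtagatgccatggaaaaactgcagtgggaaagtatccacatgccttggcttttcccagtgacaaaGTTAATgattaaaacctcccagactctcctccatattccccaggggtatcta
Fga: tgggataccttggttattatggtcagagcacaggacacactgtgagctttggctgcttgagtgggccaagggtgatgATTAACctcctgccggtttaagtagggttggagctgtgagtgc
Fgb: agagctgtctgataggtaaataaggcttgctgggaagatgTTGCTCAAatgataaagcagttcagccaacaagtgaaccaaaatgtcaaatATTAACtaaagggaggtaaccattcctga
Fabp1: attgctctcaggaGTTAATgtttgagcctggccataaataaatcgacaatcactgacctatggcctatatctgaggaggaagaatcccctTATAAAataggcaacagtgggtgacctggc
Apoa1: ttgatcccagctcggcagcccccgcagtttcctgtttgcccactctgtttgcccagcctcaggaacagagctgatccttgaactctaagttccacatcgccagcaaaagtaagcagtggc
Ahsg: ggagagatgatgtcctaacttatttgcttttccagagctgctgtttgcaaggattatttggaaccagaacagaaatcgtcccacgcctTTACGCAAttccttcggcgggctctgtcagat
The HNF1 core is present in the stretches of Alb, Gc, Fga, Fgb and Fabp1. Neither those of Apoa1 and Ahsg nor those before both annotated starts of Apoa2 hold it. RefSeq promoters (250 bases before to 50 after the start) were found for 692 of the 951 genes above each tissue. GTTAAT was in 13.7% of the 692 and in 7.5% of 27025 genes with a promoter, TTGCNNAA in 16.0% and 10.8%, TATAAA in 12.1% and 8.9%, TGTTTAC (the FOXA motif) in 5.3% and 3.5%, and CAAAGTCCA (an HNF4 site) in 2.0% and 0.5%. These shares describe letters in a window and were not tested.

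Genes of iron and heme did not all move one way. Of 18, 14 were higher, 9 than in each tissue, and 1 was lower, where 10.9% of all genes tested were higher and 72.6% lower. Hamp, the hormone hepcidin that limits iron uptake, stood at 1057, 412 and 548 TPM against at most 12.3 TPM. Bmp6, the signal that induces hepcidin and is made by endothelium, was lower in liver, at 2.54, 1.06 and 2.30 TPM against 1.15 to 93.0 TPM (-1.93 ± 0.19). The metallothioneins Mt1 (267, 706 and 52.6 TPM) and Mt2 (130, 343 and 9.34 TPM) spread widely within liver and were not called.

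Markers of the other cells of the liver were next examined. Fewer cells of a type and less RNA per cell cannot be told apart in these bulk samples. The counts below stand against all genes tested, of which 10.9% were higher and 72.6% lower as deposited. With the common genes 21.9% were higher and 51.3% lower. Of 14 Kupffer cell genes, 9 were higher, 5 of them than in each tissue (median 1.26). With the 20-week libraries alone 7 were higher and 1 was lower, and after scaling to the common genes 12 were higher. Clec4f, restricted to Kupffer cells, stood at 164, 53.3 and 40.9 TPM against 0 to 1.46 TPM (5.95 ± 0.33), and Cd5l at 134, 65.8 and 42.3 TPM against at most 6.76 TPM. Macrophage genes that all tissues express were not called, such as C1qa (0.03 ± 0.31, adjusted p = 0.926) and Csf1r (0.12 ± 0.32, adjusted p = 0.737). The 14-week library held the most of Clec4f, Cd5l, C1qa and Csf1r. Of 13 sinusoidal endothelial genes, 12 were tested, 7 were higher and 2 lower, and with the common genes 10 and 2. The scavenger receptor Stab2 stood at 61.8, 30.8 and 44.8 TPM against 0.388 to 8.44 TPM (3.91 ± 0.26), whereas Pecam1, expressed by endothelium of all vessels, was lower in liver (-1.66 ± 0.14) with lung reaching 652 TPM. Lyve1, taken as a sinusoidal marker, was lower too. Stab1, another such marker (0.64, adjusted p = 0.124), Mrc1 and Kdr were not called. Of 12 stellate cell genes, 5 were higher and 4 lower (7 and 2 with the common genes), none beyond each tissue, with 3 higher in the 20-week libraries alone, and the direction of Dcn (-0.15 ± 0.28, adjusted p = 0.631) turned to 0.75 with the common genes. Colec11 stood at 41.2, 17.3 and 39.2 TPM and overlapped with heart at up to 28.6 TPM. The first 20-week library was lowest for Stab2, Clec4g, Dcn and Colec11. Of 11 bile duct genes, 10 were tested, 8 were lower and only Spp1 was higher, and with the common genes 5 were lower and 2 higher. These shares lie near those of all genes tested, of which 72.6% were lower as deposited and 51.3% with the common genes. Of 8 red blood cell genes, 7 were tested, 4 were lower and none higher, with the common genes none was lower and 1 higher, and with the 20-week libraries alone 2 were lower and 1 higher. Of 10 lymphocyte genes, 8 were lower and none higher as deposited, and 4 were lower with the common genes, again near or under the shares of all genes.

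The largest differences among lower genes belonged to energy metabolism and the cytoskeleton of other tissues. Fabp3, the heart fatty acid binding protein, stood at 0.508, 0.641 and 1.39 TPM in liver and at 28.8 to 7605 TPM (median 177) elsewhere, a difference of -7.43 ± 0.21 (adjusted p = 2.43e-12), the mirror of Fabp1. Ak1, adenylate kinase 1, stood at 0.230, 0.898 and 0.498 TPM against 33.2 to 910 TPM (-7.05 ± 0.16). Ldhb, the heart form of lactate dehydrogenase, stood at 3.23, 1.57 and 4.02 TPM against 51.7 to 1618 TPM (-6.33 ± 0.20), and Hk1, the hexokinase of most tissues, at 4.85, 2.10 and 2.23 TPM against 57.3 to 1989 TPM (-5.85 ± 0.29). None of these 4 overlapped with any library of another tissue. Others by the same rule were Chn1, Mlf1, Slc25a4, Cap2 and Cpe, with differences of -6.74 to -5.81. Markers of the other tissues were lower for 6 of 7 brain, 7 of 8 heart, 8 of 8 lung and 8 of 8 testis genes tested, where 72.6% of all genes were. The exceptions were Syt1, a synaptic vesicle protein at 7.99, 5.18 and 8.62 TPM in liver (0.13 ± 0.21, adjusted p = 0.578), and Ttn (-2.66 ± 1.78, adjusted p = 0.176).

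The second question was how much circRNA liver holds. Summed over all circRNAs, liver libraries held 1589, 1384 and 1287 RPM, in the order 14 weeks and 20 weeks, and the other libraries 3308 to 30723 RPM (median 5444). No other library came near the 3 liver values. The geometric mean was 5.56-fold lower in liver (1414 against 7859 RPM, exact permutation test over 455 splits of 3 and 12 libraries, two-sided, p = 0.011, the smallest possible being 0.0022). The splits of this and the other permutation tests treat libraries of the same tissue as independent. Their p-values therefore also hold differences among the other tissues, and do not measure how liver compares with tissues in general. Heart and lung, the nearest tissues, held 2.55 and 3.00 times the liver level, testis 6.40 and brain 19.5 times. The difference held without brain (-1.87 on the log2 scale, exact permutation p = 0.00455) and with the 20-week libraries alone (-2.46, exact permutation p = 0.0444). The number of circRNAs with a read was 1260, 912 and 816 in liver and 989 to 7445 elsewhere, a 2.86-fold difference of geometric means (exact permutation p = 0.0176). That number follows the circRNA reads of a library, which depend on abundance as well as depth. Drawing all libraries down to the same circRNA reads removes differences in abundance too, so it cannot tell these apart. Drawn down to 1231 reads, the smallest total, 842, 807 and 816 circRNAs were expected in liver and 784 to 959 elsewhere, a 1.08-fold difference (exact permutation p = 0.0527), and heart lay at or below liver in its 20-week libraries. With the 20-week libraries alone the difference in number without this adjustment had an exact permutation p of 0.0889.

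**Figure D3:**
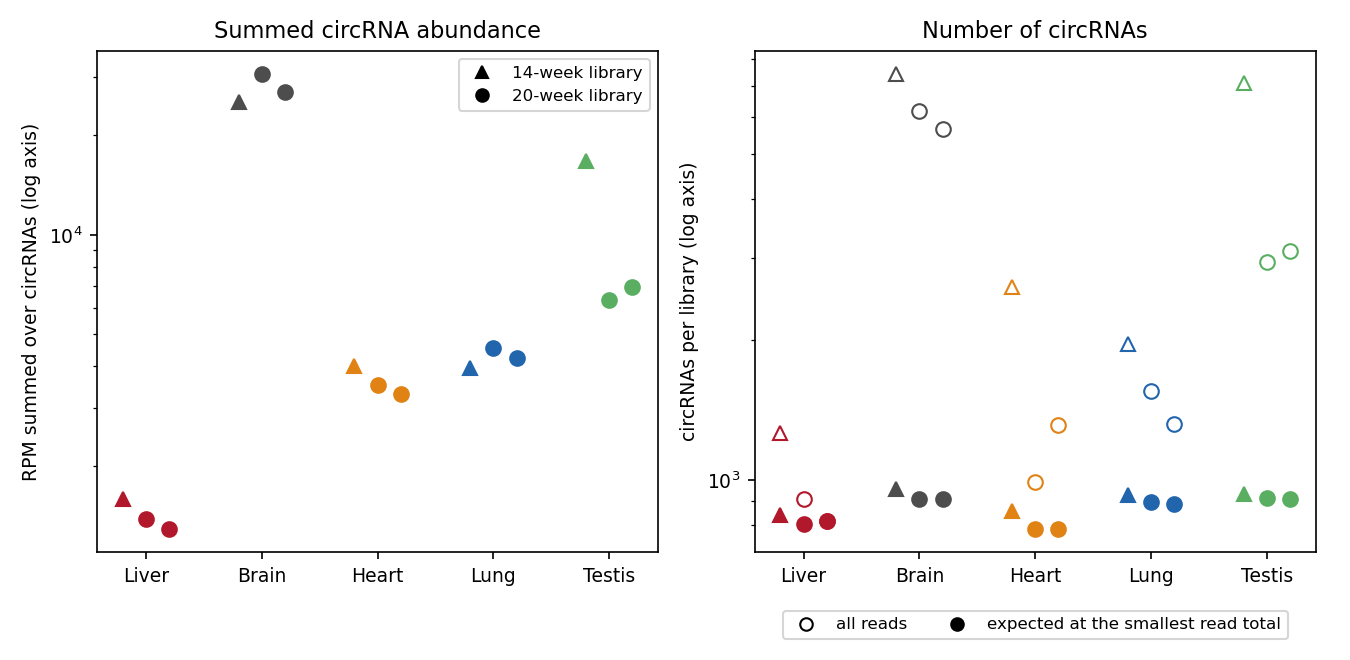
Summed circRNA abundance in RPM (left) and number of circRNAs per library (right) for 5 tissues, both on log axes, with triangles for 14-week and circles for 20-week libraries. Open symbols count all reads and filled symbols give the number expected at 1231 reads. The liver sums of 1287 to 1589 RPM lie below all others, while the filled symbols of all tissues lie between 784 and 959.

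Liver circRNAs were mostly seen once. Of 2304 circRNAs with a liver read, 1514 (65.7%) had a single read over the 3 libraries, 151 had a read in all 3 libraries and 56 had at least 10 reads. The 56 had a median of 3 exons and a median span of 7674.5 bp, and 12 of them were single exons. Of the 56, 40 also had reads in each of the other tissues and 3 had none elsewhere. The 8 most abundant together held 7.01% of the 4793 liver reads, close to the 6.19% of the 8 most abundant in brain and below 13.75% in heart. By mean abundance they came from Adk (17.9 RPM), Fam82a1 (14.0), Aass (12.8), Arhgap5 (12.7), Asph (12.5), Nfix (11.46), Gigyf2 (10.4) and Tlk1 (10.2). Of these, Adk and Aass were higher in liver, Nfix (-0.77 ± 0.29, adjusted p = 0.0351) and Gigyf2 (-1.39 ± 0.40, adjusted p = 0.0103) were lower, and the other 4 were not called. Scaled to equal circRNA totals, Nfix (1.53) and Gigyf2 (0.95) were higher instead.

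Of the 842 circRNAs tested, 11 were higher in liver (1.31%) and 528 were lower (62.7%), with a median difference of -1.07. Higher than in each tissue were 6 (0.713%) and lower than in each 9 (1.07%). The split depended on the scale. With equal circRNA totals 55 were higher and 253 lower, which puts higher calls at 17.9% of all calls in place of 2.0%, and with equal medians 19 were higher and 12 lower (61.3%). All 11 kept their call under both scalings and with edgeR on the recovered reads with TMM. Equal totals and equal medians raise liver against the other tissues, with median differences of -0.52 and 0.14. TMM raised liver too, with 22 higher and 16 lower in place of 10 and 155 with edgeR at the deposited scale. Under these settings a higher call could hardly be lost, so keeping it is no support. With edgeR at the deposited scale, which does not raise liver, 8 of 11 kept their call. Against single tissues 9, 7, 6 and 14 circRNAs were higher in liver than in brain, heart, lung and testis, and 619, 42, 64 and 289 lower.

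The junctions of liver circRNAs are shown because these letters exist only in the ring and identify it. They were built from coding exons of GENCODE transcripts on GRCm38 whose lengths and order match the exons of the deposited circRNA. Lower case gives the last 20 bases of the last exon and capitals the first 20 bases of the first exon, which back-splicing joins to it. The exons joined were 6 to 5 (Adk), 7 to 3 (Nr1h4), 12 to 9 (Hacl1), 5 to itself (Cyp2j5), 12 to 9 (Slco1b2), 7 to 4 (Cyp2c70) and 6 to 5 (Abcc2). Slco1b2, Cyp2c70 and Abcc2 have other circRNAs with reads in liver and none elsewhere. Those shown are chr6:141612099-141620834 (4 liver reads), chr19:40235045-40242113 (7) and chr19:43872897-43873635 (5), in mm9. Another circRNA of Slco1b2 had 8 liver reads, and others of Cyp2c70 and Abcc2 had 7 each.
Adk: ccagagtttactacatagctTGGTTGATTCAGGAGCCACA
Nr1h4: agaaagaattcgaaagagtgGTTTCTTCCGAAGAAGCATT
Hacl1: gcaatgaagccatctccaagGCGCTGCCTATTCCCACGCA
Cyp2j5: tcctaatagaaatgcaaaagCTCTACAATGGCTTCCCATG
Slco1b2: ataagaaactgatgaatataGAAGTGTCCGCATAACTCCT
Cyp2c70: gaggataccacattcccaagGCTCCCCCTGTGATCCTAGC
Abcc2: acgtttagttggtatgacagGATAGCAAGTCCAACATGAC

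Most of the 6 circRNAs above each tissue came from metabolic enzymes and receptors of hepatocytes. Coordinates are those of the deposited table in mm9. The Adk circRNA (adenosine kinase, chr14:22054055-22059793, 2 exons) had 15, 28 and 15 reads in liver and 20 over the 12 other libraries, 17.9 ± 8.05 RPM (SD, n = 3 libraries) against a mean of 2.23 RPM. It was 2.55 ± 0.45 higher on the log2(RPM + 1.1758) scale (limma, adjusted p = 8.10e-04), and no other library reached the lowest liver library. The Aass circRNA (lysine breakdown, chr6:23057140-23072737, 10 exons) had 14, 16 and 12 reads against 4 in all elsewhere (3.16 ± 0.36). The Nr1h4 circRNA (FXR, the bile acid receptor, chr10:88936497-88946269, 5 exons) had 7, 10 and 6 reads against 1 in testis (2.71 ± 0.20). Reads of the Adk circle were found in 11 of the 12 other libraries, whereas those of Aass and Nr1h4 were nearly confined to liver. The Hacl1 circRNA (alpha oxidation of fatty acids in peroxisomes, chr14:32432158-32436160, 4 exons) had 14, 4 and 5 reads and none elsewhere, at least 18.0-fold higher when the others are set at 3 reads over the 12 libraries. A single-exon circRNA with no host symbol at chr6:122157915-122159124 had 12, 5 and 9 reads and none elsewhere, at least 21.3-fold higher by the same floor. The Ghr circRNA (growth hormone receptor, chr15:3407930-3501685, 4 exons) had 5, 8 and 9 reads against 2 in heart (2.56 ± 0.25). Of these 6, 5 (all but that of Adk) passed the floor of 20 reads only through their liver reads, as did 10 of the 11 higher circRNAs, so that their calls partly follow from the filter and are no support. For each of the 6 the lowest liver library lay above the highest of the other tissues.

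The other 5 higher circRNAs were 2 of Mtus1 and 1 each of Ttc39c, Pdia5 and Thrb. The Mtus1 circRNAs, which share the start of their first exon, had 10, 5 and 3 reads and 6, 4 and 4 reads in liver, against 11 and 8 in all elsewhere (1.84 ± 0.48 and 1.58 ± 0.40). The Ttc39c circRNA had 0, 13 and 12 reads against 9 elsewhere (1.74 ± 0.56, adjusted p = 0.0167). It had no read in the 14-week liver library, in which the host stood at 63.9 TPM against 259 and 418 TPM at 20 weeks. Thrb encodes a thyroid hormone receptor, and its single-exon circRNA (5, 2 and 5 reads) was 1.02 ± 0.40 higher and overlapped with brain. With the 20-week libraries alone only 3 of the 11 passed the filter on reads, and all 3 were called. Of the 528 lower circRNAs, 258 passed it then and 233 were called.

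Besides the Hacl1 circRNA and the one without host, 10 circRNAs had a read in each of the 3 liver libraries and none elsewhere, all with too few reads to be tested. They came from Slco1b2 (3), Cyp2c70 (2), Abcc2 (2), Cyp2j5, Ttc39c and 0610012H03Rik. The Cyp2j5 circRNA, a single exon at chr4:96307963-96308139, had 3, 8 and 3 reads, at least 12.0-fold above the floor of the other libraries. Those of Slco1b2 and Abcc2, an uptake carrier and the canalicular exporter of bilirubin conjugates, had 1 to 3 reads per library. Floors on reads cover counting error only. The ± values of differences are standard errors of the fit, taken from the spread between libraries.

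**Figure D4:**
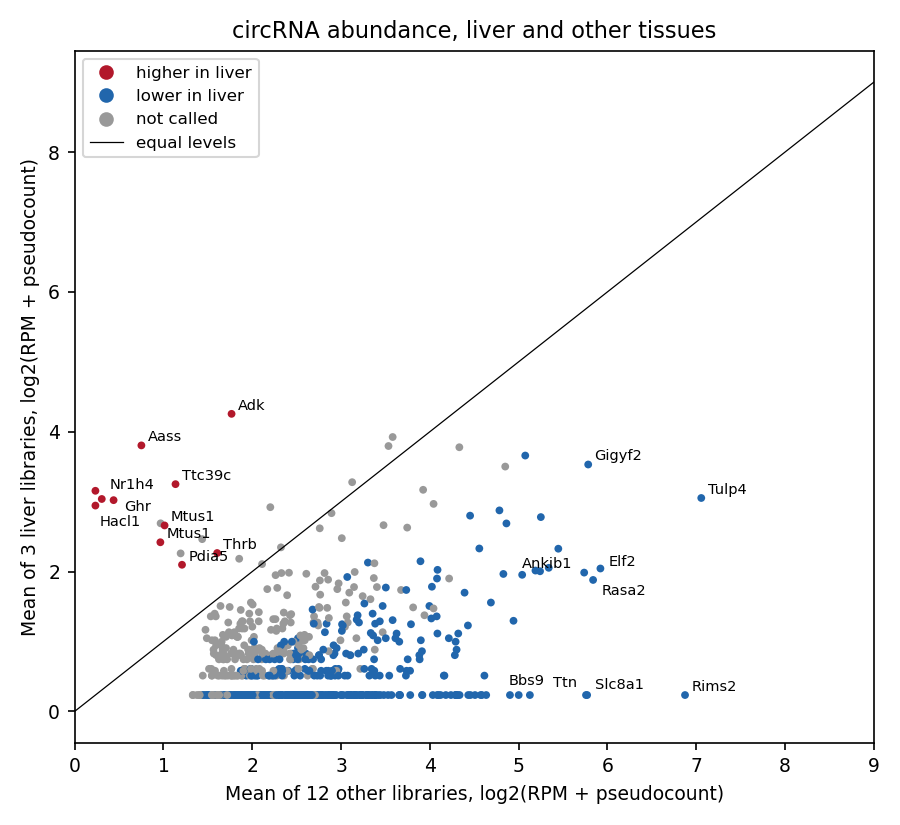
Mean abundance of 842 tested circRNAs in 12 libraries of other tissues (horizontal) and 3 liver libraries (vertical), as log2(RPM + 1.1758), coloured by call. The 11 higher circRNAs lie above the line of equal levels on the left, and the row at the bottom holds 433 circRNAs without a liver read.

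Lower circRNAs were led by those that other tissues hold in quantity. Of the 842, 433 had no liver read, passed the floor only through other tissues, and made up 366 of the 528 lower calls. In all, 821 of the 842 had under 20 reads in liver, and 45 had under 20 outside it. The filter thus favoured circRNAs that other tissues hold, and the lower calls partly follow from it and are no support. The single-exon Slc8a1 circRNA (sodium-calcium exchanger, chr17:82047149-82048978) had 0 reads in liver against 445 elsewhere, 293 of them in heart and 136 in brain (-4.08 ± 0.45, adjusted p = 3.10e-05), and was at least 58.2-fold lower with liver set at 3 reads over its libraries. Circles of Ttc3 (0 against 148 reads) and Nbea (0 against 169) were at least 20.0- and 22.2-fold lower. The Tulp4 circRNA (chr17:6137211-6139156, single exon) was present in liver, at 10, 9 and 5 reads or 7.12 ± 1.74 RPM, and had 977 reads elsewhere at 26.0 to 567 RPM (-2.98 ± 0.37, adjusted p = 7.42e-05). Those of Elf2 (10 against 464 reads, -3.26), Rasa2 (8 against 449, -3.06) and Ankib1 (9 against 410, -2.97) also did not overlap. Those of Ttc3, Nbea, Elf2, Tulp4, Strbp, Spopl, Unc13b and Arhgap10 were among the 9 lower than in each of the 4 tissues.

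Hosts known for abundant or studied circRNAs were then looked up, taking for each the circRNA with the highest mean. For 18 of 30 such hosts with a circRNA, the chosen circRNA had no liver read, and other circRNAs of these hosts were not counted. For 20 hosts the chosen circRNA could be tested. Of these circRNAs, 17 were lower and none higher. Their median was -1.95 against -1.07 over all tested, of which 62.7% were lower. Taking the highest mean favours circRNAs that the other tissues hold. Liver reads of the Rims2 circRNA (a presynaptic scaffold, 878 reads elsewhere, 846 in brain) and of the Ttn circRNA (the giant sarcomere protein, 521 reads, 515 in heart) were 0. The Hipk3 circRNA had 6, 2 and 2 reads in liver against 302 (-1.998 ± 0.42), Cdyl 4, 4 and 2 against 306 (-1.98 ± 0.37) and Zfp148 8, 5 and 6 against 281 (-1.39 ± 0.55), all 3 overlapping with other tissues. Scaled to equal circRNA totals these 3 stood at 0.05, 0.12 and 0.88.

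The third question was whether circRNAs follow their host genes. The deposited host TPM was subtracted on the log2 scale for the 825 tested circRNAs with a host in the gene table. Relative to host, 194 were higher in liver (23.5%) and 44 were lower (5.33%), with a median of 0.36. Higher calls rested on absent circles: 163 of the 194 had no liver read, and only 3 had 10 or more. For such a circRNA the value is set by the pseudocount and the level of its host. With a pseudocount 5 times smaller, 27 of the 194 and 20 of the 44 calls were kept. Lower calls included liver-enriched hosts. Nr1h4 was 6.50 higher as a gene (133, 115 and 133 TPM against at most 0.942 TPM) and 2.71 higher as a circle, so that the ratio was lower by -3.79 ± 0.31 (adjusted p = 4.87e-07). Aass was 5.67 higher as a gene and 3.16 as a circle (ratio -2.51 ± 0.36), and Hacl1 4.94 and 2.62 (ratio -2.33 ± 0.36). The Hacl1 circRNA had no read outside liver, so its ratio there is set by the pseudocount and the host. In RPM per 100 host TPM it stood at 0.78 in liver and 0 elsewhere, the opposite direction. The ratios of Nr1h4 and Aass outside liver rest on 1 and 4 circRNA reads. Adk differed alike in both, 2.88 as a gene (634, 536 and 598 TPM against 19.2 to 199 TPM) and 2.55 as a circle, with a ratio of -0.33 ± 0.45 (adjusted p = 0.638). The Mlxipl circRNA (ChREBP, the glucose-responsive factor) had 16, 4 and 0 reads and was not called by itself (1.30 ± 0.56, adjusted p = 0.0559), while its ratio was lower (-3.31 ± 0.52). Ankib1 was lower in ratio as well (-1.94 ± 0.35, adjusted p = 3.57e-04), with the circle 2.97 and the host 1.03 below the other tissues. Without brain 77 circRNAs were higher and 22 lower relative to host, and with the 20-week libraries alone 40 and 10.

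**Figure D5:**
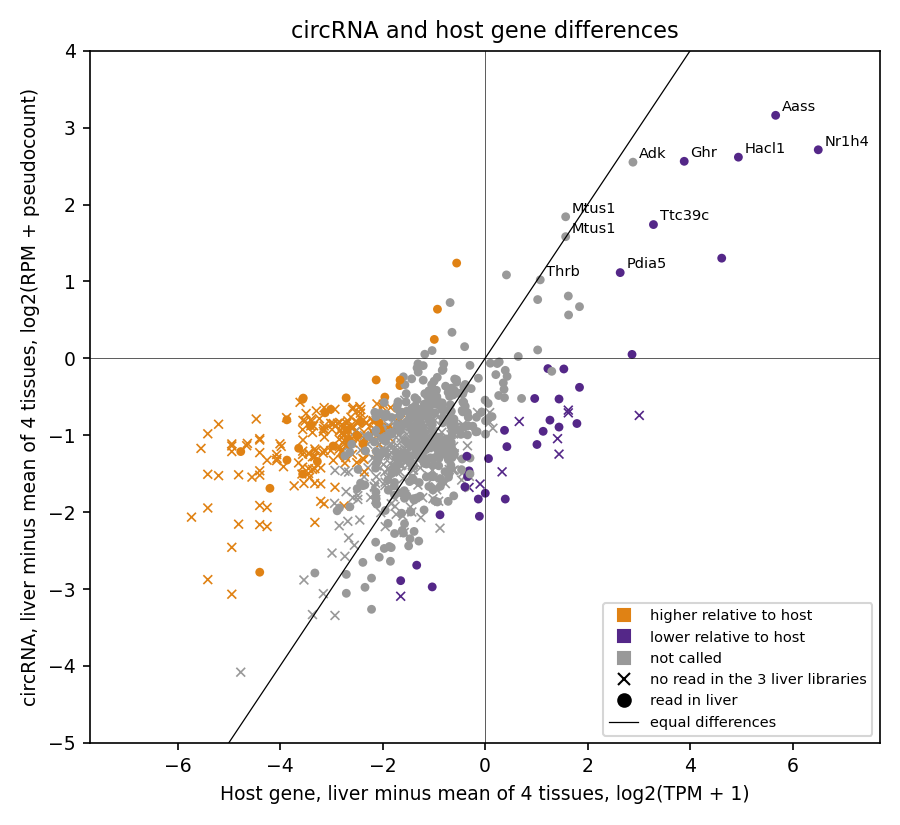
Difference between liver and the mean of 4 tissues for host genes (horizontal, log2(TPM + 1)) and their circRNAs (vertical, log2(RPM + 1.1758)). Crosses have no read in the 3 liver libraries and colours mark calls relative to host. The Slc8a1 cross lies lowest at -4.08, Tmeff1 hosts lie far left at -5.41, and Nr1h4, Aass and Hacl1 lie to the right of the line of equal differences.

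The most abundant liver transcripts gave few circles. The 120 genes at a mean of 1000 TPM or more held 47.8% of TPM in liver, 10 of them hosted a circRNA with a liver read, and these had 84 reads, 1.75% of all liver circRNA reads. Alb, at a mean of 52710 TPM, had 2 circRNA reads, Ahsg 2 and C3 9, and the other 17 of the 20 most abundant genes have no circRNA in the table. The 951 genes above each tissue, with 60.5% of TPM, gave 662 reads (13.8%). As a share of genes they were not unusual, with 106 (11.1%) hosting a liver read against 1268 of 10197 (12.4%) other genes at 1 TPM or more in all 3 liver libraries. Of 301 genes in 13 lists of hepatocyte functions, 35 (11.6%) hosted a liver read, 216 reads in all, led by Cyp2c70 and Nr1h4 (23 each), Mlxipl (22), Slco1b2 (15), Cyp2j5 (14) and Abcc2 (12).

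Genes known to promote or restrain circle formation or decay were looked at last. Of 18, 17 were lower as deposited, where 72.6% of all genes were (median -1.44 against -1.02 over all genes). With the common genes 10 were lower and 2 higher, near the 51.3% of all genes that were lower (median -0.63 against -0.50). Qk, the splicing factor Quaking that promotes circle formation, stood at 40.7, 31.4 and 35.2 TPM in liver against 59.0 to 502 TPM (median 372), without overlap (-2.84 ± 0.16, adjusted p = 1.80e-09). Srsf1 stood at 85.7, 73.6 and 67.3 TPM against 133 to 487 TPM (-1.84 ± 0.17), and Adarb1, an RNA-editing enzyme, at 8.74, 6.21 and 9.19 TPM against 15.9 to 206 TPM (-2.39 ± 0.17). The helicase Dhx9, which resolves paired repeats, was not called (-0.22 ± 0.17, adjusted p = 0.255). Mbnl1, which binds introns around its own circle, was lower as deposited (-0.55 ± 0.13) and 0.34 higher with the common genes. The part of these genes in the circRNA total was not tested.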

How the data were processed

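Per the labels' protocols, TRIZOL was used for extraction and libraries followed Illumina protocols. Per the submitters' processing notes, CASAVA 1.8.2, TopHat2 2.0.6, Cufflinks 2.2.1 and the mouse build mm9 were used, in roles not given in the sources used here. Which program called circRNAs was not stated there. Genes carry deposited TPM values, the same sum in each library. The circRNA values are RPM deposited by the authors, scaled to a total that is not stated. In every library they are whole multiples of the smallest value (100% lay within 0.1 of a whole number), which gave back the reads, and 1 read was worth 0.718 to 2.14 RPM. The lists of circRNAs deposited by the authors give exon counts and a score, which was not used.

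The main test was limma 3.58.1 in R 4.3.3 (eBayes with trend) on log2(TPM + 1) and log2(RPM + 1.1758), the worth of a read in the median library, with a mean per tissue, all 15 libraries sharing the spread. Relative to host, log2(TPM + 1) of the host was subtracted. Totals were compared by exact permutation. edgeR 4.0.16 on recovered reads was an alternative. On simulated data, limma found 58% of 2-fold and 94% of 4-fold changes among 18966 genes, and 59% of 4-fold and 77% of 8-fold changes among 842 circRNAs, and called 0.04% of unchanged genes and 1.71% of unchanged circRNAs. The simulation set liver to the mean of the 4 other tissues before the changes, and drew noise independently for each library. The real liver values are shifted down (medians of -1.02 for genes and -1.07 for circRNAs), so these rates need not hold for the real data.

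Named genes are the 3 most abundant in liver of each list and the 10 largest differences each way with 5 TPM or more in the higher group and no overlap. Named circRNAs are the 8 most abundant in liver, the 8 largest differences each way with 11.76 RPM or more and no overlap, the 6 largest relative to host, the most abundant of each listed host, and those of the 20 most abundant genes. Other genes and circRNAs in the text were chosen after their values were seen. Members and lists were chosen with earlier results of these data known. Results of some genes are not reported here. A 14-week brain library made from poly(A) RNA was left out.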

Additional observations from a re-analysis of the deposited data

How the results depend on the processing

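Gene counts were stable to pseudocount, filter and tissue left out, and moved with scaling. With equal medians 6556 genes were higher, 7490 lower and 2634 higher than in each tissue, with the common genes 4147 were higher and 1645 exceeded each, and in a fit of liver against 12 pooled libraries 988 were higher and 3150 lower, where the spread holds the differences between the other tissues. For circRNAs, 25 were higher with no floor on reads and 1 higher and 197 lower with a floor of 50 reads. Equal medians gave 19 higher and 12 lower, equal totals 55 and 253, edgeR with TMM 22 and 16, edgeR at the deposited scale 155 lower, the 20-week libraries 3 and 246, and no brain 201 lower. In the pooled fit of limma 5 were higher and 0 lower, against 98 lower at an unadjusted p under 0.05. Relative to host, higher and lower counts were 27 and 26 at a pseudocount 5 times smaller, 532 higher at 5 times it, 2645 and 301 with no floor, 34 and 15 with a floor of 50, 454 and 15 with equal totals, 44 and 7 in the pooled fit, 40 and 10 at 20 weeks, 77 and 22 without brain, and 128 higher without testis. The log2 difference in the number of circRNAs was -1.43 at 20 weeks, -1.34 without testis (exact permutation p = 0.05) and -0.115 when expected at the smallest read total. The cause of these shifts was not tested.

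With 1 library left out at a time, higher genes numbered 1779 to 2126, lower 12332 to 13678 and above each 774 to 962. Higher circRNAs numbered 3 to 12, lower 330 to 521, and relative to host 117 to 190 and 26 to 44. The difference in circRNA number ranged from -1.697 to -1.384 and in summed abundance from -2.588 to -2.295.

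These single values changed direction. Syt1 went to -0.60 with a pseudocount of 5 TPM, -0.06 at 20 weeks and -0.32 without testis. With equal medians Dcn went to 1.35, Slc4a2 to 0.74, Hbb-b1 to 0.17, Ptprc to 0.93, Cd4 to 0.41, Hnrnpl to 0.12, Mbnl1 to 0.95, Rtn4 to 0.07 and Hipk3 to 0.04. With the common genes Dcn went to 0.75, Slc4a2 to 0.15, Ptprc to 0.41 and Mbnl1 to 0.34. Stab1 went to -0.04 without testis, and with single libraries left out Dcn ranged from -0.52 to 0.41 (highest without the first 20-week liver library) and Pnlip from -0.47 (without the second) to 3.39. The Asph circRNA went to -0.12 at 5 times the pseudocount, -0.72 without testis, and, with single libraries left out, from -0.41 (first 20-week liver) over -0.22 (14-week brain) and -0.07 (first 20-week testis) to 0.32. With equal medians the Nfix and Tlk1 circRNAs went to 0.45 and 0.59. With equal totals those of Nfix went to 1.53, Gigyf2 0.95, Tlk1 1.60, Hipk3 0.05, Cdyl 0.12 and Zfp148 0.88, and with edgeR and TMM those of Nfix to 0.75, Gigyf2 0.08 and Tlk1 0.79. Of the other values of single genes and circRNAs under alternatives, 3341 kept direction and call, 160 lost the call and 29 gained it.

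The labels do not say that a replicate number marks a shared animal. Over 30 same-numbered pairs of libraries from different tissues the correlation of deviations from the tissue means ran from 0.066 to 0.506, above 0.1 in 28 and at or under it in 2, so the fit without pairing was kept. The 10 pairs of 14-week libraries, which share an age, gave 0.156 to 0.506, and pairs of a 14-week with a 20-week library -0.356 to -0.083. Among 20-week libraries, pairs with the same number (0.066 to 0.284) and with different numbers (0.017 to 0.231) overlapped. In 54 of 60 cases a library correlated best with its own number in another tissue. For a 14-week library that number is also the only one of its age, so those cases follow age. Only the 20-week cases can hint at pairing, from the data and not the design. The 14-week libraries also differed in Y-linked transcripts, which brain and testis held and liver, heart and lung had at 0.1 TPM or less. A fit with the replicate block gave 2171 higher and 14127 lower genes, 981 above each, 12 and 549 circRNAs, and 198 and 46 relative to host. Of the 842 circRNAs tested, 433 have no liver read, and lower abundance and limited depth cannot be told apart for a single one of them.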

Other observations

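The major urinary proteins, pheromone carriers that liver secretes into blood, were abundant in liver. Summed over 21 Mup genes, the 14-week liver library held 18180 TPM and the 20-week libraries 49413 and 56605 TPM, against at most 29.6 TPM in any other library. Mup10 was even across liver libraries, at 8409, 9322 and 8620 TPM, whereas Mup3 stood at 6355, 18251 and 16859 TPM. These genes are near-identical copies, so the division of reads among them is uncertain and the sum is the safer value.

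Genes that mark the zones of the liver lobule were present from both ends. Of 13 periportal genes 13 were higher in liver and 9 exceeded each tissue (median 6.87), and of 14 pericentral genes 13 were higher and 9 exceeded each (median 6.11), the exception being Axin2 (-0.49 ± 0.26, adjusted p = 0.1), a target of Wnt signalling. Of 1315 long intergenic noncoding RNAs tested, 23 (1.75%) were above each tissue, against 5.01% of all genes tested. Genes more than 10-fold above both 20-week libraries at 14 weeks numbered 33 in liver, 32 in brain, 7 in heart, 7 in lung and 4 in testis, and those more than 10-fold below both numbered 19, 10, 6, 9 and 9.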
